A study of Mus musculus with 23 samples.

Results

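The values here are those of 10 genes that detoxify carbonyls and epoxides or pump conjugates out of the cell, measured in TM4 cells, an immortalized line of mouse Sertoli cells, the somatic cells that nurse germ cells in the testis. The genes were Akr1b3, Akr1b8, Cbr1, Cbr3, Ephx1, Aldh2, Aldh3a2, Ugdh, Abcc1 and Abcc4, and they were found through the RefSeq transcript that each probe of the array was assigned to. This gave 12 probes of 10 genes, among 55681 non-control probes that named 20145 genes, with 2 probes each for Akr1b3 and Ephx1 and 1 for the others. All 12 probes were well above background on all 23 arrays, and all 10 genes were therefore tested in every comparison.

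Cells were exposed for 48 hr to 100 µM of 1 of 5 plasticizers, each dissolved in 1% DMSO, or to 1% DMSO alone. The compounds were mono(2-ethylhexyl) phthalate (MEHP), the metabolite of the phthalate DEHP, and diisononyl cyclohexane-1,2-dicarboxylate (DINCH), dioctyl maleate (DOM), 1,4-butanediol dibenzoate (BDB) and dioctyl succinate (DOS). There were 4 biological replicates per group and 3 for DOS, each on its own 1-colour array. The study set out to ask whether candidate replacements for DEHP alter gene expression in a Sertoli cell model. The model is 1 cell line: of 19 Sertoli cell marker genes on the array, 8 were above background on all arrays, among them Gata4, Dmrt1 and Dhh, and 5 were above it on none, among them Wt1 and Fshr. Of the markers of other cell types, Acta2 and Cnn1 of peritubular cells and Cyp17a1 of Leydig cells were above background on all arrays, and 0 of 4 germ cell and 0 of 2 leukocyte markers were. The 75th percentile of the signal lay between 204.6 and 350.7 units per array. The arrays lay on 3 slides that each held DMSO arrays, and 1 of the 3 slides held no DOS array. Each array had 2 position numbers within its slide. The second of these was 1 or 3 for MEHP, BDB and DINCH and 2 or 4 for DMSO, DOM and DOS. For MEHP, BDB and DINCH this position thus cannot be told apart from the comparison with DMSO or with DOM.

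Reactive carbonyls and epoxides arise from lipid peroxidation and from the oxidation of foreign compounds, and they form adducts with proteins and DNA. Aldo-keto reductases and carbonyl reductases reduce aldehydes and ketones to alcohols, aldehyde dehydrogenases oxidize aldehydes to acids, and epoxide hydrolases open epoxides to diols. The alcohols and diols can then be conjugated with glucuronic acid. Multidrug resistance-associated proteins (MRPs) export conjugates, among them those of glutathione.

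Levels are given as log2 of the signal relative to the 75th percentile of the array, and for genes with 2 probes the brighter one stands for the gene. RNA came from whole cultures, so fewer cells expressing a gene and less RNA per cell cannot be told apart. A gene was called when a probe had an adjusted p below 0.05 and a difference of more than 1.5-fold in limma's moderated test, with Benjamini-Hochberg adjustment over all probes tested. Against DMSO, DOM changed 4 of the 10 genes. Ephx1, Aldh2 and Abcc1 rose and Akr1b3 fell. In the same comparison 20.5% of all tested genes were called, 9.9% higher and 10.6% lower. The 10 genes were chosen with earlier results of these data known, so their counts beside such shares are descriptions. DINCH changed 1 of the 10, Abcc4, which fell, while 8.26% of all genes were called, 4.02% lower. MEHP, BDB and DOS changed 0 of the 10 by limma, with 1 of the 10 at an unadjusted p below 0.05 in each, which was Abcc4 every time. Of all tested genes 1.69% were called with MEHP, 0% with BDB and 0% with DOS. In 3 of the 10 genes all DOM arrays lay above all DMSO arrays and in 1 all lay below, and these shares were 19% and 20.5% of all tested genes. In 2 of the 10 all DINCH arrays lay above DMSO, as in 11.6% of all genes. The 5 comparisons shared the same 4 DMSO arrays. The median difference over the 10 genes was 0.16 for DOM, beside −0.03 over all tested genes.

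**Figure D1:**
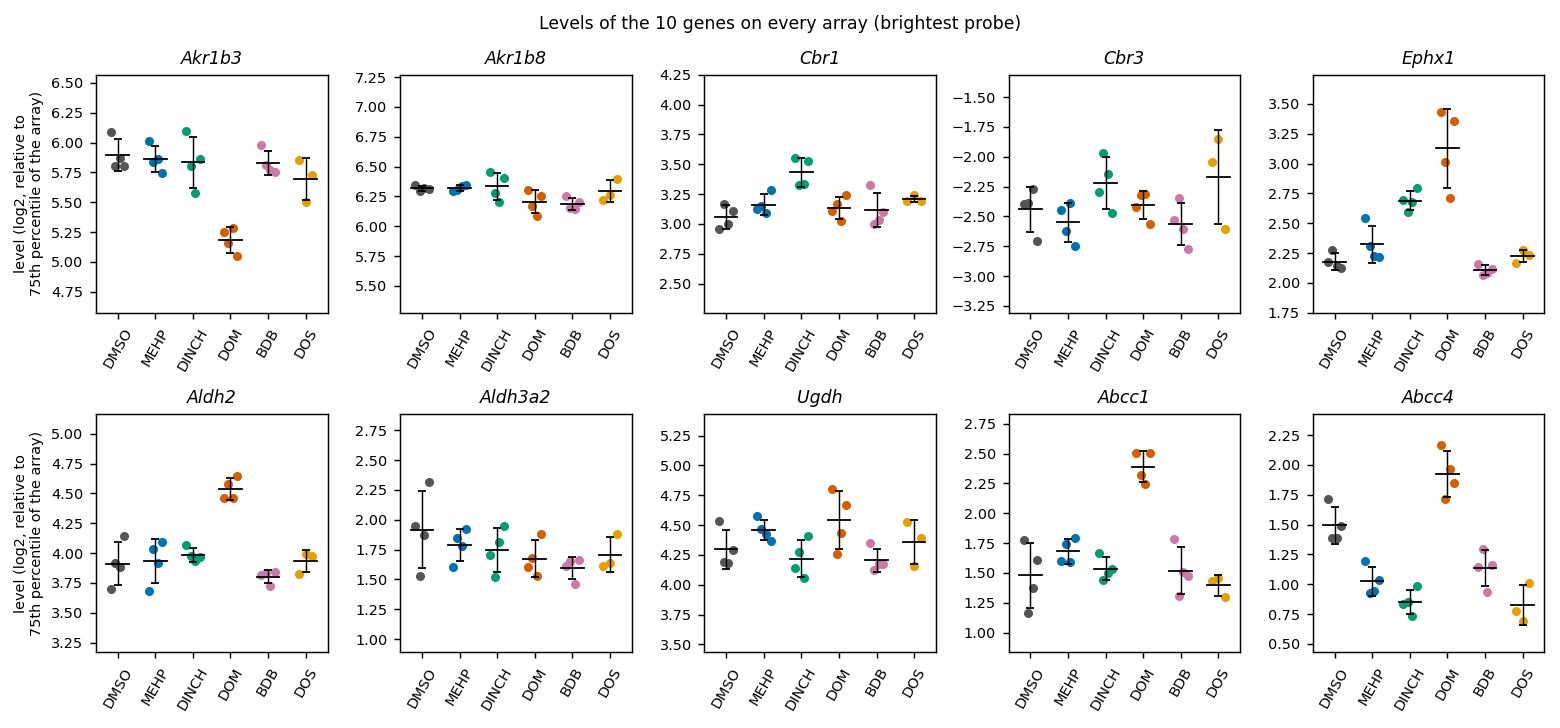
Level of each gene on every array, as log2 relative to the 75th percentile of the array (y axis), by treatment group (x axis). Points are arrays, lines are group means and bars are SD (n = 4, 3 for DOS). DOM stands apart from all other groups in Akr1b3, Aldh2 and Abcc1, and in Abcc4 the 4 other compounds lie below DMSO.

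Of the aldo-keto reductases, Akr1b3, aldose reductase, fell with DOM. Its levels were 6.09, 5.81, 5.87 and 5.80 on the DMSO arrays and 5.25, 5.16, 5.29 and 5.05 on the DOM arrays. Each DOM array lay below each DMSO array, and below each array of the other 4 compounds. The difference from DMSO was −0.71 log2 units (standard error 0.10, 1.64-fold lower, limma adjusted p = 0.0014), and the dimmer probe gave −0.75 (adjusted p = 0.00112). Within the 3 slides the difference was −0.89, −0.56 and −0.76. Each slide held only 1 or 2 DOM arrays and 1 or 2 DMSO arrays, here and for the other genes. The means of DMSO (5.89), MEHP (5.86), DINCH (5.83), BDB (5.83) and DOS (5.69) followed in that order, and the arrays of each neighbouring pair overlapped.

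Akr1b8, a related reductase of aliphatic and aromatic aldehydes, was at almost the same level in all groups. Its lowest group mean was 6.19 with BDB and its highest 6.34 with DINCH. On DMSO the arrays were at 6.34, 6.29, 6.32 and 6.31. DOM differed from DMSO by −0.11 (95% interval −0.31 to 0.09, adjusted p = 0.357). The 4 BDB arrays, at 6.25, 6.16, 6.14 and 6.21, lay just below the DMSO arrays, a difference of −0.13 that did not pass the test (adjusted p = 0.50).

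Cbr1 and Cbr3 are cytosolic carbonyl reductases that reduce quinones and other carbonyl compounds. Cbr1 was at 2.96, 3.17, 3.0 and 3.11 on the DMSO arrays and at 3.55, 3.32, 3.33 and 3.53 on the DINCH arrays. The DINCH arrays lay above all DMSO arrays, by 0.38 log2 units on average (standard error 0.10, adjusted p = 0.045), which is 1.30-fold and below the threshold for a call. With DOM the arrays were at 3.11, 3.16, 3.02 and 3.24 and overlapped those of DMSO (difference 0.08, 95% interval −0.14 to 0.29). For DOS the difference was 0.15 (adjusted p = 0.831), with 3 of 3 arrays above DMSO, as in 4.33% of all genes. Cbr3 varied most between replicates with DOS, where the arrays were at −2.05, −1.85 and −2.61. On DMSO they were at −2.40, −2.39, −2.27 and −2.71. No group differed from DMSO in Cbr3 at an adjusted p below 0.05, and DOM differed by 0.04 (95% interval −0.23 to 0.30).

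Ephx1, the microsomal epoxide hydrolase, had the largest difference between DOM and DMSO among the 10 genes. Its levels were 2.17, 2.28, 2.14 and 2.13 with DMSO and 3.43, 3.01, 2.71 and 3.36 with DOM. All DOM arrays lay above all DMSO arrays, and the spread with DOM (SD 0.33) was wider than that with DMSO (SD 0.07). The difference was 0.95 log2 units (standard error 0.16, 1.93-fold, adjusted p = 0.00237), and within the 3 slides it was 1.05, 0.50 and 1.23. DINCH came next, at 2.69, 2.60, 2.68 and 2.79, all above DMSO. That difference was 0.51 (standard error 0.09, adjusted p = 0.0107), 1.42-fold and below the threshold for a call. MEHP arrays were at 2.54, 2.31, 2.22 and 2.22 and overlapped those of DMSO (0.14, adjusted p = 0.504). BDB and DOS differed from DMSO by −0.07 and 0.05.

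The dimmer Ephx1 probe moved less. It was at −0.08, 0.08, 0.04 and 0.15 with DMSO and at 0.31, 0.36, 0.20 and 0.83 with DOM. The groups did not overlap, but the difference of 0.38 did not pass the test (standard error 0.14, adjusted p = 0.0719). With DINCH it was 0.32 (adjusted p = 0.0667). The call of Ephx1 with DOM thus rests on the brighter probe.

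Aldh2, the mitochondrial aldehyde dehydrogenase that oxidizes acetaldehyde and lipid aldehydes, rose with DOM. It was at 3.70, 3.92, 3.88 and 4.14 with DMSO and at 4.46, 4.58, 4.46 and 4.65 with DOM. Every DOM array lay above every array of the other 5 groups. The difference from DMSO was 0.63 (standard error 0.11, 1.55-fold, adjusted p = 0.00349), which is just over the fold threshold, and without DMSO replicate 1 it was 0.56 and no longer a call. Within the slides it was 0.82, 0.56 and 0.51. The other 4 compounds differed from DMSO by −0.11 (BDB) to 0.07 (DINCH). Aldh3a2, the microsomal fatty aldehyde dehydrogenase, had 1.95, 1.53, 1.87 and 2.32 on DMSO, a wider spread than in any other group. Its mean was lower with every compound, by 0.13 (MEHP) to 0.32 (BDB), but arrays of all groups overlapped those of DMSO. None of these differences passed the test, and that of DOM was −0.24 (95% interval −0.61 to 0.13).

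Ugdh makes UDP-glucuronic acid, the donor for glucuronidation. It was at 4.53, 4.19, 4.18 and 4.29 with DMSO and at 4.81, 4.26, 4.43 and 4.67 with DOM. The groups overlapped, and the difference was 0.24 (95% interval −0.08 to 0.56, adjusted p = 0.221). The other compounds differed from DMSO by −0.09 (BDB) to 0.16 (MEHP).

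The MRP exporters Abcc1 (MRP1), which transports glutathione conjugates, and Abcc4 (MRP4), which transports cyclic nucleotides and other organic anions, behaved unlike each other. Abcc1 was at 1.78, 1.16, 1.37 and 1.61 with DMSO and at 2.50, 2.32, 2.24 and 2.50 with DOM. All DOM arrays lay above the arrays of all other groups. The difference from DMSO was 0.91 (standard error 0.14, 1.88-fold, adjusted p = 0.0019), and it was 0.63, 0.98 and 0.90 within the slides. The other 4 compounds had means from 1.40 (DOS) to 1.68 (MEHP), which differed from DMSO by −0.08 to 0.20, and none of these differences passed the test.

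Abcc4 was at 1.72, 1.38, 1.39 and 1.49 with DMSO. With DINCH it was at 0.83, 0.85, 0.74 and 0.99, with DOS at 0.78, 0.69 and 1.01, with MEHP at 1.19, 0.92, 0.95 and 1.03, and with BDB at 1.14, 1.30, 0.93 and 1.17. All arrays of these 4 groups lay below all DMSO arrays, and all DMSO arrays entered each of the 4 comparisons. Over all tested genes, the share whose arrays all lay below DMSO was 6.63% for MEHP, 12.4% for DINCH, 8.66% for BDB and 3.8% for DOS.

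The test called the fall for DINCH, which was −0.64 (standard error 0.11, 1.56-fold lower, adjusted p = 0.00968). This call was lost without DMSO replicate 1, where the difference was −0.57 (adjusted p = 0.022), and without the filter on dim probes (adjusted p = 0.0914). DOS had a difference of similar size, −0.67 (standard error 0.13), with 3 arrays and an adjusted p of 0.359. For MEHP it was −0.47 (adjusted p = 0.0564) and for BDB −0.36 (adjusted p = 0.19).

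With DOM, in contrast, Abcc4 was at 2.17, 1.72, 1.96 and 1.85. Its difference from DMSO was 0.43 (standard error 0.13, adjusted p = 0.0296), which is 1.35-fold and below the threshold for a call. The groups overlapped only in that DOM replicate 2 and DMSO replicate 1 were both at 1.72. The order of the group means was thus DOM (1.92), DMSO (1.49), BDB (1.13), MEHP (1.02), DINCH (0.85) and DOS (0.83). Neighbours in this order overlapped except DMSO and BDB.

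**Figure D2:**
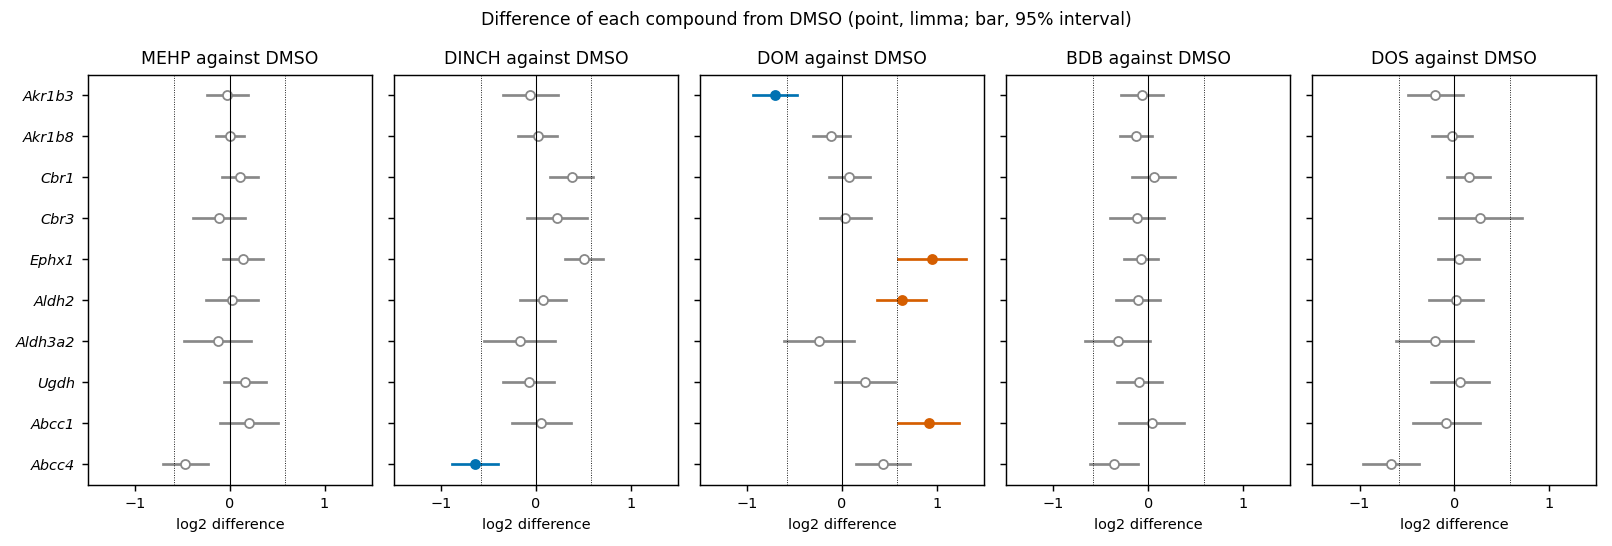
Log2 difference of each compound from DMSO for the 10 genes (x axis), with the limma estimate as a point and its 95% interval as a bar. Filled points are calls (orange higher, blue lower) and dotted lines mark 1.5-fold. The calls are Ephx1, Aldh2, Abcc1 and Akr1b3 with DOM and Abcc4 with DINCH.

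The arrays of DOM were then set directly against those of each other compound at the same dose and time, which gave 4 pairs with p-values adjusted over the probes of all 4. DOM and DOS are diesters of the same kind of alcohol that differ in the acid part, where maleate has a carbon-carbon double bond and succinate has a single bond. They differed in 4 of the 10 genes, all higher with DOM, while 16.1% of all tested genes were called in this pair, 7.62% higher. Abcc4 was 1.1 log2 units higher with DOM than with DOS (standard error 0.14, 2.14-fold, adjusted p = 0.000785). Abcc1 was 0.997 higher (standard error 0.11, adjusted p = 0.00049), Ephx1 0.90 (0.18, adjusted p = 0.00574) and Aldh2 0.61 (0.11, adjusted p = 0.00346). In each of the 4 genes every DOM array lay above every DOS array, as in 17.8% of all genes. Akr1b3 was 0.51 lower with DOM (adjusted p = 0.0139, 1.42-fold), below the threshold for a call. Aldh2 fell under the fold threshold without DOS replicate 1 (0.55) or DOM replicate 4 (0.57), and Akr1b3 passed it without DOS replicate 3 (−0.61).

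No difference between DOM and DOS passed the test in the remaining 5 genes. The 95% intervals of DOM minus DOS were −0.33 to 0.16 for Akr1b8, −0.31 to 0.16 for Cbr1, −0.65 to 0.17 for Cbr3, −0.33 to 0.26 for Aldh3a2 and −0.18 to 0.55 for Ugdh. For Cbr3 a difference of 1.5-fold thus lies within the interval, and for the other 4 genes it does not.

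Against MEHP, DOM differed in 5 of the 10 genes, with 19.5% of all genes called, 9.58% higher and 9.9% lower. Ephx1 (0.81), Aldh2 (0.61), Abcc1 (0.71) and Abcc4 (0.90) were higher and Akr1b3 (−0.68) was lower. Without MEHP replicate 1 or DOM replicate 4 the difference in Aldh2 was 0.52 or 0.57 and no longer a call. Against BDB the same 5 genes were called, with 27.1% of all genes (14.6% higher and 12.5% lower), and the differences were 1.02 for Ephx1, 0.74 for Aldh2, 0.87 for Abcc1, 0.79 for Abcc4 and −0.65 for Akr1b3. The 95% intervals of the other 5 genes against MEHP and BDB all included 0, except that of Ugdh against BDB (0.05 to 0.63, adjusted p = 0.0735). The dimmer Ephx1 probe was not called against MEHP (0.34, adjusted p = 0.0831), BDB (0.34, adjusted p = 0.0995) or DOS (0.38, 1.30-fold). The Ephx1 calls in these pairs thus rest on the brighter probe.

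Against DINCH, DOM differed in 3 of the 10 genes, with 23.3% of all genes called, 11.8% higher and 11.6% lower. Abcc4 was 1.07 higher (standard error 0.12, 2.10-fold, adjusted p = 0.000288), Abcc1 was 0.86 higher and Akr1b3 was 0.65 lower. Aldh2 was 0.56 higher (adjusted p = 0.00247), at 1.47-fold. Ephx1 did not pass the test in this pair: the difference was 0.44 (95% interval 0.08 to 0.80, adjusted p = 0.06) and the arrays overlapped. Its dimmer probe differed by 0.06 (95% interval −0.27 to 0.38, adjusted p = 0.78). Cbr1 was on the other side, lower with DOM on every array, as in 20% of all genes, by 0.30 (adjusted p = 0.0551). Ugdh, at a mean of 4.54 with DOM and 4.22 with DINCH, was not called and its arrays overlapped. In this pair 7 of the 10 genes, Ugdh among them, had an unadjusted p below 0.05 in limma's test. The call of Akr1b3 on the brighter probe was lost without DINCH replicate 1 (−0.56).

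**Figure D3:**
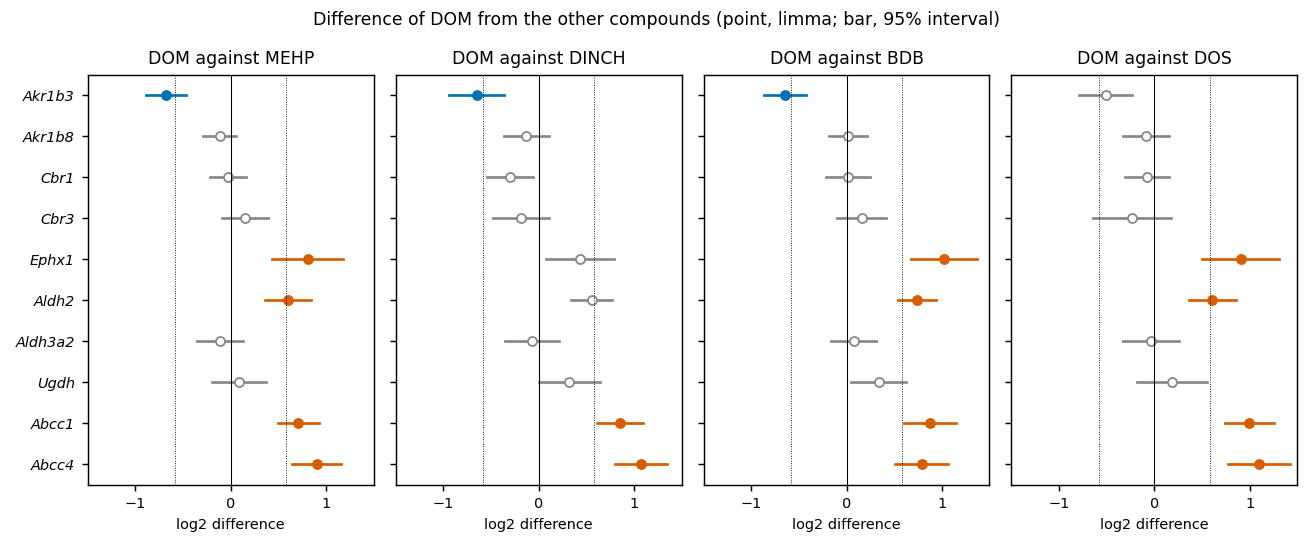
Log2 difference between DOM and each other compound for the 10 genes (x axis, DOM minus the other compound), with the limma estimate as a point and its 95% interval as a bar. Filled points are calls (orange higher with DOM, blue lower) and dotted lines mark 1.5-fold. Abcc1 and Abcc4 are higher with DOM in all 4 pairs.

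Across the 23 arrays, the levels of Aldh2 (r = 0.78) and Abcc1 (r = 0.77) ran most like those of Ephx1 among the other 9 genes, and those of Akr1b3 ran against it (r = −0.69). These are descriptions over arrays that share their treatments. Of the named genes outside the list whose brightest probe was tested for DOM against DMSO, 3 were most like Ephx1. They were 4931406C07Rik (r = 0.935), Gstm1 (r = 0.932) and Slc5a3 (r = 0.929). Gstm1, a glutathione transferase, rose by 2.03 with DOM (standard error 0.19, adjusted p = 0.000285) and Slc5a3, a myo-inositol transporter, by 0.71. The difference of 4931406C07Rik with DOM was 0.57, which is 1.49-fold and below the threshold for a call.

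Promoters were examined because several of these genes are textbook targets of the transcription factor NRF2, which binds the antioxidant response element. The RefSeq promoter table (GRCm38.p6) held 7 of the 10 genes in 8 windows that ran from 250 bases before to 50 bases after a start, without Akr1b3, Aldh2 and Abcc1. These absent genes were all called with DOM against DMSO, so Ephx1 was the only gene called there whose promoter could be examined. The core letters of the element, TGACNNNGC, were searched on both strands. They occurred in both windows of Abcc4 and in that of Ugdh, and in none of Ephx1, Akr1b8, Aldh3a2, Cbr1 and Cbr3. Of all 32851 promoters in the table, 12.4% held them. A match is a description of letters and no binding was measured. The 250 bases before the start are shown 5′ to 3′ for the promoters with a match and for Ephx1, the gene with the largest difference under DOM. Capitals mark the match on either strand. They lie on the minus strand at chr14:118706220-118706469 (Abcc4, upstream start), chr14:118676932-118677181 (Abcc4, downstream start), chr5:65435843-65436092 (Ugdh) and chr1:181017570-181017819 (Ephx1).
Abcc4, upstream start: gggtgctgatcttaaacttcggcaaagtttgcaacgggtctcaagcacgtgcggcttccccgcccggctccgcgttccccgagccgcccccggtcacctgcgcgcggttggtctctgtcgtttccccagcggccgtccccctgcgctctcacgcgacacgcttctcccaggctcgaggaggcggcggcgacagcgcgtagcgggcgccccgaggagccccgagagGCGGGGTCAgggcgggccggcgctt
Abcc4, downstream start: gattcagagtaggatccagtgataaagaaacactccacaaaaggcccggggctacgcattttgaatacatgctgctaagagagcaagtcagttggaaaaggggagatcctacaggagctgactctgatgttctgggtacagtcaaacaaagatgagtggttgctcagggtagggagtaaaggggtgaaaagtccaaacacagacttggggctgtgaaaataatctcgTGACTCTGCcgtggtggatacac
Ugdh: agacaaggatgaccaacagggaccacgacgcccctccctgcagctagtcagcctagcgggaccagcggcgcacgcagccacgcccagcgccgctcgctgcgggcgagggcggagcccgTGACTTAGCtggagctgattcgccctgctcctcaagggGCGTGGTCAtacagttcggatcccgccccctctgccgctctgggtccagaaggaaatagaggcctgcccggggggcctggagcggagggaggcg
Ephx1: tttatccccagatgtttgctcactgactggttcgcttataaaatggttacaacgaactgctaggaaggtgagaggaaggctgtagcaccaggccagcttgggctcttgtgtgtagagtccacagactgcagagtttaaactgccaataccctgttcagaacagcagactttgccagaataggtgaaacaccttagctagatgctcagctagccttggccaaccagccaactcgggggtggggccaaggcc
In the upstream Abcc4 window the match began 25 bases before the start, and in the downstream window 23 bases before it. In Ugdh the matches began 132 and 94 bases before the start. Of these genes Abcc4 was called lower with DINCH against DMSO and higher with DOM in all 4 direct pairs, but not with DOM against DMSO. Ugdh was called in none, and Ephx1, which had no match in its window, was called higher with DOM against DMSO. Whether the letters bear on these changes was not tested.

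The wider classes that the 10 genes belong to were described with a list of 86 other genes, 78 of them on the array. The list was chosen with earlier results of these data known. Its counts, in all and per class, are therefore descriptions and no test of the classes. Under DOM 46 could be tested, of which 10 were called higher and 7 lower, where 9.9% and 10.6% of all tested genes were. Their median difference was 0.05, beside −0.03 over all tested genes. With MEHP 3 of 46 were called higher and 2 lower, where 1.69% of all genes were called in either direction. With DINCH 3 of 46 were called higher and 2 lower, where 8.26% of all genes were called. With BDB (46 tested) and DOS (45 tested) 0 were called, as over all genes.

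Akr1b7, an aldo-keto reductase close to Akr1b8, was the only called one of the 6 tested and fell by 2.08 with DOM (adjusted p = 0.000359) and by 1.27 with MEHP. It was well above background on 3 of the 4 DOM arrays. Among the 11 carbonyl and alkenal reductases and alcohol dehydrogenases tested, Cbr2 (1.58) and Dcxr (0.62) rose with DOM. Adh7, an alcohol dehydrogenase that also oxidizes retinol, fell (−1.55), as did Dhrs7 (−0.67). Cbr2 rose by 1.49 with DINCH too, a size that Cbr1 and Cbr3 did not reach with any compound. The 2 other epoxide hydrolases tested were not called.

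Among 14 aldehyde dehydrogenases tested, 5 were called higher with DOM and 3 lower, beside the 9.9% and 10.6% of all tested genes. Aldh3b1 rose by 1.30 and Aldh1a1, which makes retinoic acid, by 1.29, while Aldh18a1, a proline synthesis enzyme, fell by 1.01 and Aldh1l2, a mitochondrial folate enzyme, by 0.97. Aldh1a1 rose with MEHP (1.85) and DINCH (1.33) as well. Aldh3a1, singled out after its values were seen, had 2 probes that moved by very different amounts with DOM, 0.62 on the brighter and 3.72 on the dimmer.

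Esd, which hydrolyses S-formylglutathione, was listed together with Glo1 and Hagh of the glyoxalase system, which were not called with DOM. Esd was called with DOM on its dimmer probe (1.57), while the brighter one differed by 0.51 (adjusted p = 0.01), below 1.5-fold. Of the glucuronidation enzymes, Ugt1a6b, which shares exons with other Ugt1a genes, was likewise called on its dimmer probe (1.16), and the brighter one differed by 0.13 (adjusted p = 0.57). Of the other transporters, Abcc10 (MRP7) rose with DOM by 1.07 and Abcb1b, a P-glycoprotein, fell by 1.66.

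**Figure D4:**
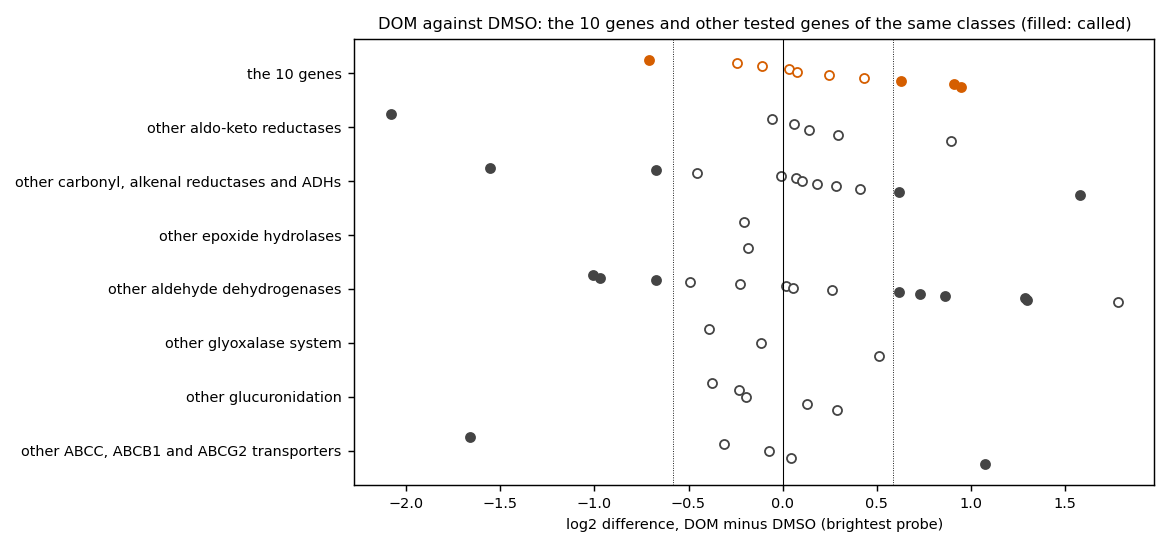
Log2 difference between DOM and DMSO on the brightest probe (x axis) for the 10 genes, in orange, and for other tested genes of the same classes, in grey, by class (y axis, with ADHs for alcohol dehydrogenases). Filled points are calls on that probe and dotted lines mark 1.5-fold. Among the other genes the calls run from −2.08 (Akr1b7) to 1.58 (Cbr2).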

How the data were processed

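The authors extracted spot intensities with Agilent Feature Extraction 11.5.1.1, which subtracts background and marks outlier spots. The deposited intensity values are linear and unscaled. A second table from the authors held log2 values, scaled by the 75th percentile of the array and centred per probe. Its columns correlated with their own arrays at 0.9996 or more and its log2 scale had a slope of 1.00.

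Here the log2 intensity (floor of 1) was set relative to each array's 75th percentile, outlier spots were dropped and replicate spots averaged. The filter for testing kept probes that, on every array of either group, were well above background and reached the 20th percentile. Groups came from the sample labels. Pairs of groups were fitted separately in limma 3.58.1 (R 4.3.3). The fit and the call rule, but not the scaling or the filter, were tried on simulated data. Figures were drawn with matplotlib 3.10.9. Precision is limited by the number of arrays.

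The 10 genes and the class lists were chosen with earlier results of these data known. Named from the lists were at most 4 called genes per class with the largest difference under DOM, and the 3 genes most like the gene that changed most. Sequences were from RefSeq, and since the array was designed on another build no positions of probes were used.

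Replicate numbers are shared between groups. Same-numbered arrays deviated together, with every correlation over 0.1, for DINCH (0.17 to 0.50), BDB (0.25 to 0.43) and DOS (0.20 to 0.45) against DMSO and for DOM against MEHP (0.19 to 0.61) and DOS (0.10 to 0.40), and in these comparisons the numbers may pair the arrays, judged from the values alone. All printed differences are from fits without the pairing, which was tried as an alternative. The lowest was −0.14 for MEHP and 0.04 for DOM against DMSO.

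Alternatives were quantile normalization, normexp correction (offset 50), no filter, detection on 1 array, slide or replicate block, 1 fit of all groups, outlier spots kept, the authors' table, the brightest probe, a variance trend and each array left out. Other assays of the study were not used here.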

Additional observations from a re-analysis of the deposited data

How the results depend on the processing

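The number of the 10 genes called was recomputed under 11 other settings and with each array left out. Against DMSO it stayed at 0 for MEHP, BDB and DOS, and for DOM it was 4 in all settings and 3 to 4 with an array left out. For DINCH it was 1 except without the filter on dim probes (0), and 0 to 1 with an array left out. For DOM against the other compounds the count with an array left out was 4 to 5 (MEHP), 3 (DINCH), 5 (BDB) and 3 to 5 (DOS). With the replicate number as a block the counts were 1 for DINCH, 0 for BDB and DOS against DMSO, 5 for DOM against MEHP and 4 for DOM against DOS, so the pairing changed none of them, and it changed no other count. Of 990 differences on the brightest probe of a gene under the 11 settings, 6 lost a call, 2 gained one and 0 called ones changed sign. Apart from Abcc4 with DINCH without the filter, these turned on the fold threshold of the brightest probe, and Akr1b3 stayed called on its dimmer probe in each case where the brighter one lost its call: Akr1b3 under quantile normalization against MEHP (−0.58), DINCH (−0.56) and BDB (−0.55), Akr1b3 against DINCH (−0.58) and Aldh2 against MEHP (0.52) under normexp correction, with gains for Aldh2 against DINCH under quantile normalization (0.60) and Akr1b3 against DOS with the slide as a block (−0.61). Over all genes, quantile normalization moved the DOM calls from 1189 higher and 1275 lower to 1353 and 1098, and normexp correction lowered them to 775 and 852. Without the filter, DINCH had 62 genes higher and 35 lower in place of 506 and 479. The share of promoters with the searched letters was 10.2% in the 250 bases before the start alone. Levels rest on 3 or 4 arrays a group, and differences under 1.5-fold were not called at any precision.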
